A study of Homo sapiens with 480 samples.

Results

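Glycolysis and the transport of glucose and lactate were followed through 31 genes, of 27021 genes in the tables, while human fibroblasts were reprogrammed towards pluripotency. The 31 genes were named as a list by gene symbol, a list made with earlier results of these data known; all 31 had a row in every table. They cover glucose transporters (SLC2A1, SLC2A3), hexokinases (HK1, HK2), GPI, phosphofructokinases (PFKL, PFKM, PFKP), their bifunctional regulators (PFKFB2, PFKFB3, PFKFB4), aldolases (ALDOA, ALDOC), TPI1, GAPDH, PGK1, PGAM1, enolases (ENO1, ENO2, ENO3), PKM, lactate dehydrogenases (LDHA, LDHB), pyruvate dehydrogenase and its kinases (PDHA1, PDHB, PDK1, PDK2, PDK3, PDK4) and the lactate transporters SLC16A1 (MCT1) and SLC16A3 (MCT4).

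Glycolysis splits glucose into pyruvate in the cytosol. Lactate dehydrogenase then turns pyruvate into lactate, or the pyruvate dehydrogenase complex carries it into the citric acid cycle; the PDK kinases switch that complex off by phosphorylation. Many of these steps can be run by more than 1 isoenzyme, each from its own gene, and pluripotent stem cells are known for a high glycolytic flux in comparison with fibroblasts.

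Single cells of 5 groups were sequenced, 96 cells in each. BJ cells, an established line of human neonatal skin fibroblasts, were taken without the factors. Day-2 and day-8 cells were BJ cells at those times after induction of virally expressed OCT4, SOX2, KLF4 and MYC (OSKM). Day-16 cells had the same factors and were divided by TRA-1-60, a surface epitope of pluripotent cells, into a positive and a negative fraction, whose cells are called positive and negative cells below. Per the labels' protocols, BJ cells were grown in fetal bovine serum, and a serum-replacement medium on mouse feeder cells is described for embryonic stem cells and iPSC clones. The labels tie no medium to the day-2, day-8 and day-16 groups. No label names a separate culture or infection, so each group is 1 sample as far as the labels say, no difference between groups was tested, and levels below are descriptions.

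Of the 480 cells, 460 were kept, with at least 2000 genes and ACTB or GAPDH detected: 92 of BJ, 96 of day 2, 92 of day 8, 95 of the positive and 85 of the negative fraction. Kept cells with under 4000 genes numbered 8, 15, 4, 32 and 3 in that order, so results of the positive fraction are also given for its 63 cells with 4000 genes or more. All 9 pluripotency markers were found in at least 50% of positive-fraction cells, against 0 in BJ cells and 2 at day 8 and in the negative fraction. Of 10 fibroblast markers 9, 8, 8, 3 and 10 were found in at least 50% of cells of the groups in the same order. The tables give FPKM (fragments per kilobase of transcript, scaled to the library) without counts, and per-cell depth is therefore unknown. Whether the 5 tables, 1 per group, were normalized together is not stated, which touches every level set across them. Detection of 15 genes, none of the 31, split the tables, at 80% or more of BJ, day-2 and positive cells and 25% or less of day-8 and negative cells. Levels below are FPKM after each cell was brought to a sum of 1000000, and detection means a value of at least 1. Shares of cells carry exact (Clopper-Pearson) 95% intervals in parentheses, which cover counting error only. For detection of the 31 genes they reach at most 11.2 points to either side. Shares among cells with either of a pair of isoforms rest on fewer cells in part, and their intervals can be wider. A count of 0 is given a limit of 3 counts over the number of cells, a rule of its own that differs from those intervals. Per the labels' protocols an STRT program was run on C1 chips and libraries were tagmented. How reads cover the transcripts is not given in the sources used here, so shares and counts between genes rest on the length scaling of FPKM.

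The promoters of the lactate dehydrogenase genes and of PGK1 are shown, since the balance of LDHA and LDHB differed between the groups and PGK1 differed at least 2-fold between the fractions. Of the 31 genes, 28 had a promoter in the RefSeq table (GRCh38.p14); SLC2A3, PFKFB2 and SLC16A1 did not. The 250 bases before the most upstream start were searched on both strands for ACGTG and GCGTG, the core of the hypoxia response element, and for the E-box CACGTG, the site of MYC and related factors, which contains ACGTG on both strands. ACGTG or GCGTG was present in 16 of the 28 windows (57.1%) and in 43.1% of all 27305 windows of that length. The E-box was present in 4 of the 28 and in 6.46% of all windows.

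The 3 windows read as follows, 5′ to 3′ on the strand of the gene, with matches to the motifs in capitals: LDHA, chr11:18394313-18394562, plus strand, with 5 matches to ACGTG or GCGTG over both strands; LDHB, chr12:21657843-21658092, minus strand, with 0; and PGK1, chrX:78103998-78104247, plus strand, with 3.
LDHA: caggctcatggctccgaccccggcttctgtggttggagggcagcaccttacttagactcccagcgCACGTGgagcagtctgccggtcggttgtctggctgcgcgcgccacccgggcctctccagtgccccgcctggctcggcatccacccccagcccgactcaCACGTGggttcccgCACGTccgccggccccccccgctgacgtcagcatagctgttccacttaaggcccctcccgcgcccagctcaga
LDHB: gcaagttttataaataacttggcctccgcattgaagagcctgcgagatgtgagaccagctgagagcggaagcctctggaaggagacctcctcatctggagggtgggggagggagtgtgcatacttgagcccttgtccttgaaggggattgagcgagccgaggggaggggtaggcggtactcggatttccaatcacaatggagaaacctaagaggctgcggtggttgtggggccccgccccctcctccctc
PGK1: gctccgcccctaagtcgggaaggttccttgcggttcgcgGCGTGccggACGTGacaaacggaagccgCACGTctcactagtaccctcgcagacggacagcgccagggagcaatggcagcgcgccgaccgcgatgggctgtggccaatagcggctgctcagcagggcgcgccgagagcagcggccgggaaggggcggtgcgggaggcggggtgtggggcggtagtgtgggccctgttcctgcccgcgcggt
A match is a string of letters in the window and says nothing of a factor bound there.

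The 31 genes together gave 1.40% to 2.09% of a typical cell's total. Summed over the 31 genes, the median share per cell was 1.66% (BJ), 1.68% (day 2), 2.09% (day 8), 1.69% (positive) and 1.40% (negative). GAPDH had the highest mean of the 31 in every group, and its median share was 0.843%, 0.614%, 0.593%, 0.576% and 0.412% in the same order. The other 30 genes together had medians of 0.859%, 0.974%, 1.45%, 1.10% and 0.985%. Day-8 cells thus had the highest median sum, and cells of all groups overlapped in it, with single positive-fraction cells from 0.210% to 3.88% and negative-fraction cells from 0.922% to 2.03%. Genes of high level spanned less between the groups than some isoforms and transporters of low level. The 6 genes whose highest group mean was at least 1000 spanned 1.52 to 3.64-fold between their lowest and highest group mean. SLC2A3, ENO3, PDK1 and SLC16A3 spanned 24.7, 25.8, 21.3 and 100.2-fold, from lowest means of 7.88, 1.07, 1.04 and 0.237. PDK3 and PDK4 spanned 35.3 and 577-fold, from 0.921 and 0.0033. These ratios have no added 1, so their size depends on means near 0 in several genes. How far the contrast rests on such low means was not tested.

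**Figure D1:**
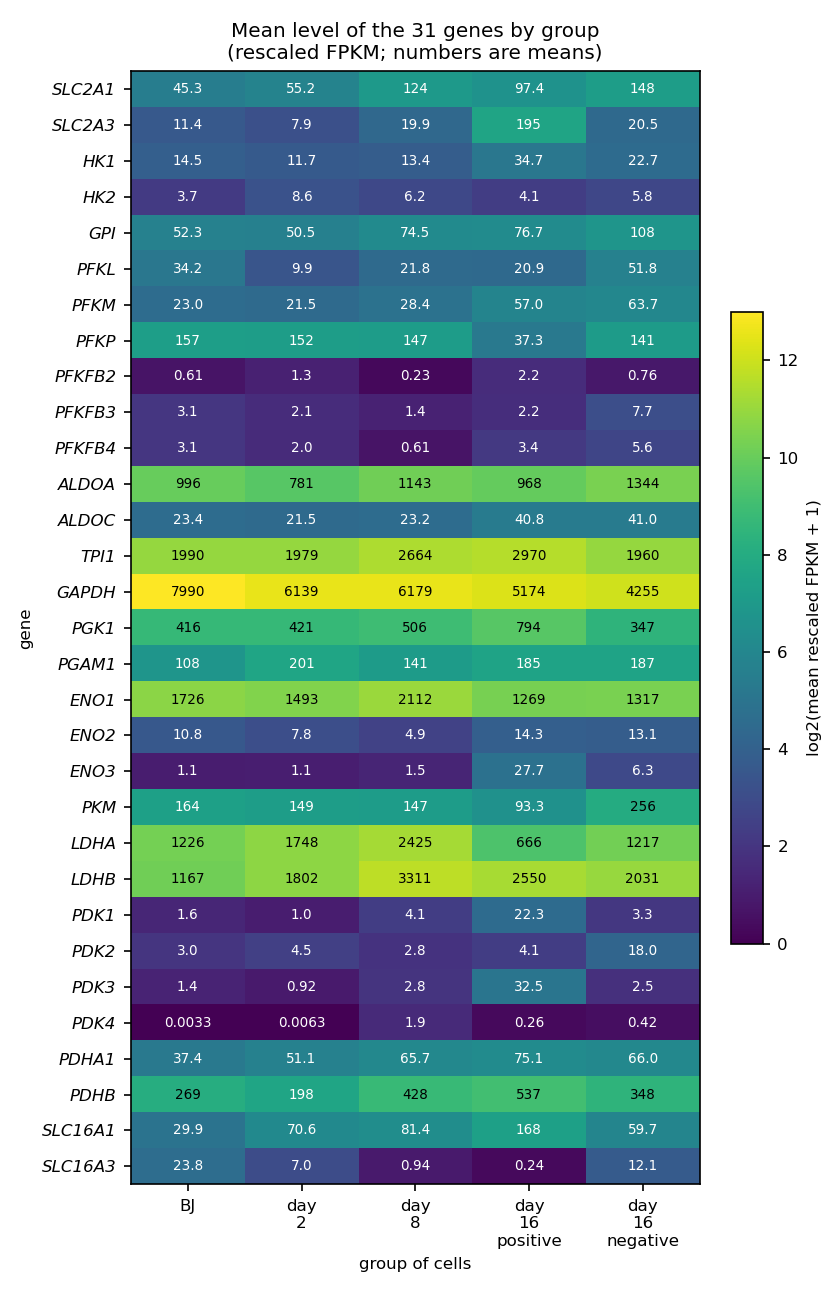
Mean level of each of the 31 genes (rows) in the 5 groups of cells (columns), as printed numbers in rescaled FPKM and as color on the scale log2(mean + 1). GAPDH, TPI1, LDHB, LDHA, ENO1 and ALDOA hold the highest means, except that PGK1 lies above LDHA in the positive fraction, and SLC2A3, ENO3 and PDK1 stand out in the positive fraction.

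Counted by comparison, the list moved about as often as other genes or less often, except for genes higher at day 8 against day 2. The call of a gene as higher or lower required that the log2 ratio of group means, each plus 1, reached 1 in size, that is 2-fold, and that the mean over cells of log2(value + 1) differed in the same direction. A gene whose mean reached 1 in a compared group was taken as measured. At day 2 against BJ, 2 of 30 measured genes were higher and 2 lower, where 12.2% and 12.1% of all measured genes were. At day 8 against day 2, 6 of 31 were higher and 1 lower (all genes 13% and 12.5%).

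In the positive fraction against day 8, 9 of 30 were higher and 3 lower (all genes 30.3% and 11.6%). In the negative fraction against day 8 the counts were 8 and 1 of 30 (all genes 28.4% and 10.6%), and in the positive against the negative fraction 6 and 6 of 30 (all genes 24.8% and 21.4%). The shares lay near those of all genes or below them, except that 6 of 31 were higher at day 8 against day 2. Median log2 ratios of the list were -0.11, 0.26, 0.36, 0.13 and -0.01 over the 5 comparisons in this order, and those of all measured genes -0.02, 0.06, 0.49, 0.49 and 0.06. Neighbouring comparisons share a group of cells, so their counts are not independent of each other.

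The choice of scale bears on these counts. From FPKM as deposited, with no rescaling, the counts at day 2 against BJ were 7 higher and 2 lower, and the median of all genes moved from -0.02 to 0.17. With group means scaled on 10 housekeeping genes the counts were 0 and 2 and that median -0.26. At day 8 against day 2 the counts were 5 higher and 2 lower as deposited, and 3 and 3 on housekeeping scaling. Taken as differences of mean log2 values, which weigh a typical cell more than single high cells, the positive fraction had 3 genes higher and 7 lower than day 8, and 4 higher and 11 lower than the negative fraction. None of the 44 calls made for single genes changed sign in any of 13 other settings. Some of these settings could not change a sign by construction. Among them were other pseudocounts, no limit on low means and the difference of mean log2 values, whose sign a call already requires. A filter on ACTB alone gave the same counts. The 9 genes left, called in no comparison, were GPI, ALDOA, ALDOC, TPI1, GAPDH, PGAM1, ENO1, LDHB and PDHA1. Under other settings some of these 9 did pass the limit. From FPKM as deposited the ratios at day 2 against BJ were 1.19 for LDHB and 1.67 for PDHA1. Ratios of uncalled genes at day 8 against day 2 turned as deposited, from 0.47 to -1.29 for LDHA, 0.26 to -2.05 for PGK1, 0.20 to -1.76 for SLC16A1 and 0.36 to -0.85 for PDHA1. The sum of deposited FPKM per cell had a median of 798970 at day 2 and reached 74940500 in 1 day-2 cell, against a highest sum of 6385530 in BJ and 1739170 at day 8.

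**Figure D2:**
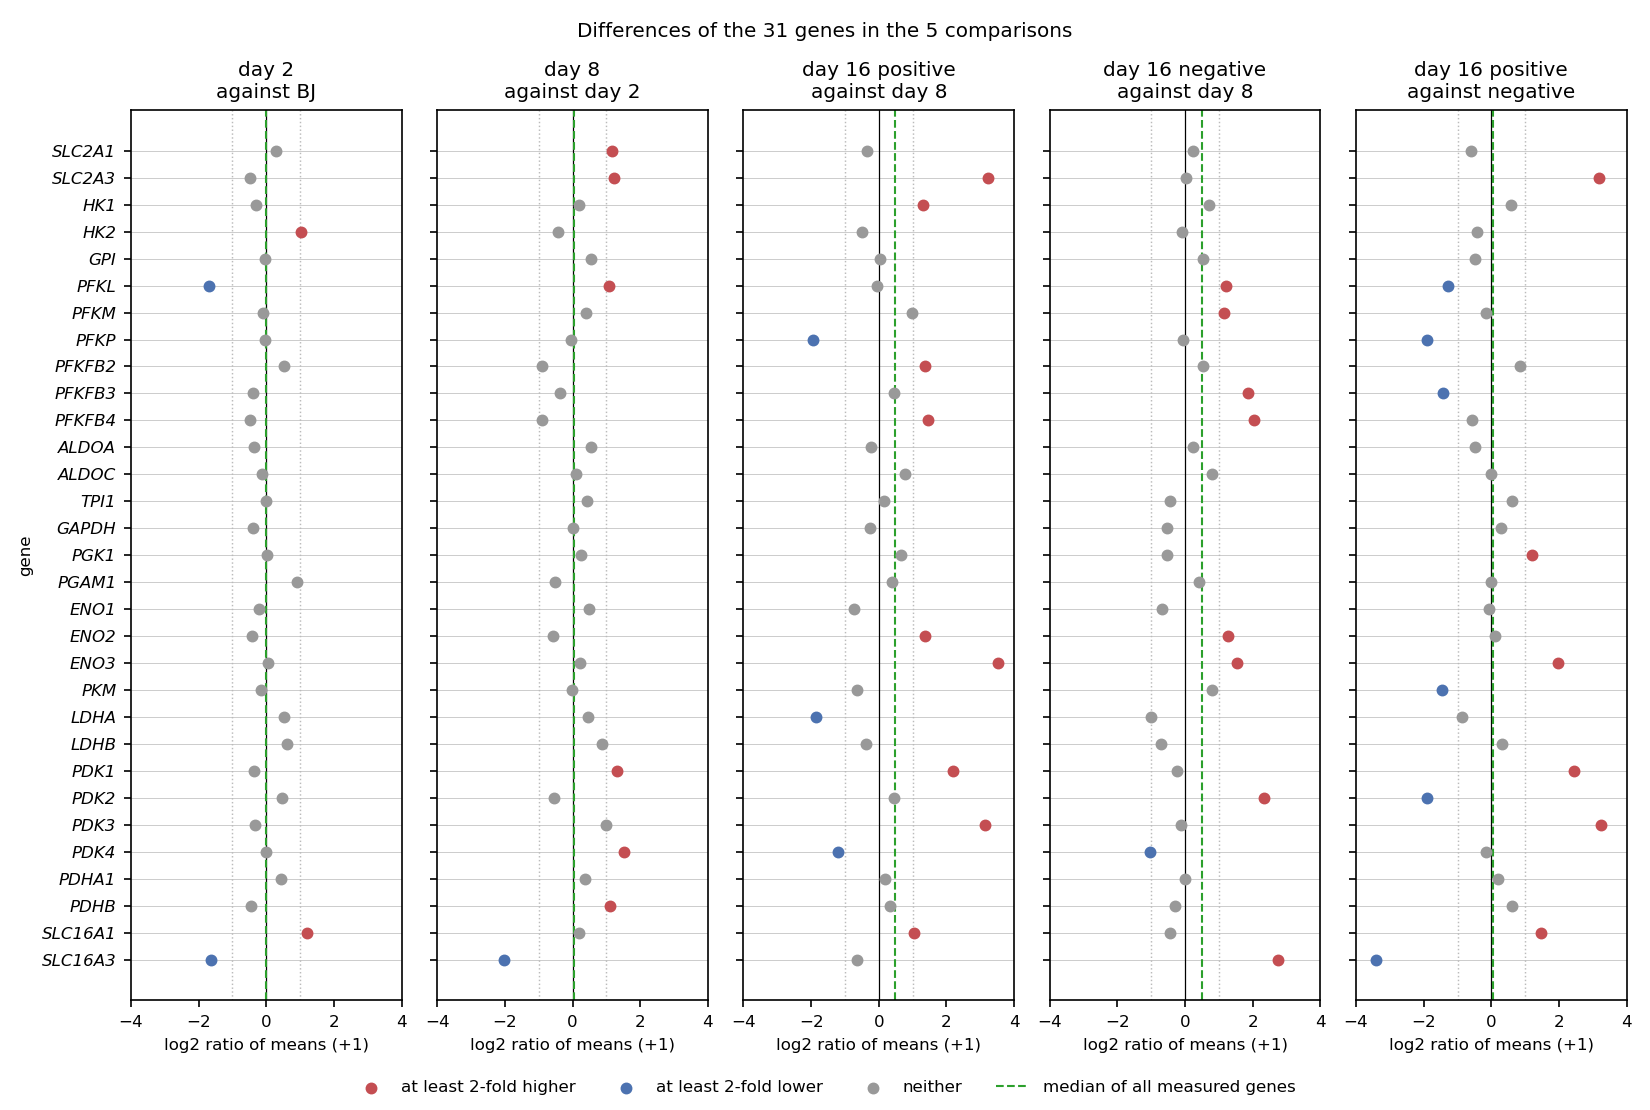
Log2 ratio of group means, each plus 1, for the 31 genes (rows) in the 5 comparisons (panels); red and blue mark genes called at least 2-fold higher or lower, grey neither, dotted lines a log2 ratio of 1 in size and the green dashed line the median of all measured genes. Red points reach furthest in the panels with the positive fraction, led by SLC2A3, ENO3 and PDK3, and PDK3 takes 74.9% of its sum in the positive fraction from 1 cell.

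The positive fraction was the group in which SLC2A3 exceeded SLC2A1 in its mean level. SLC2A3, which encodes GLUT3, a high-affinity glucose transporter best known from neurons, had mean levels of 11.4 (BJ), 7.88 (day 2), 19.9 (day 8), 195 (positive) and 20.5 (negative). In single cells its values ran from 0 to 197 with a median of 3.45 at day 8, from 0 to 2989.8 with a median of 76.9 in positive and from 0 to 312 with a median of 3.59 in negative cells. The ranges overlapped, but the lower quartile of the positive fraction, 31.3, lay above the upper quartiles of the 4 other groups, which were 7.59, 4.51, 28.1 and 23.9.

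The gene was detected in 45.7% (35.2 to 56.4) of BJ cells, 30.2% (21.3 to 40.4) at day 2, 58.7% (47.9 to 68.9) at day 8, 92.6% (85.4 to 96.99) of positive and 57.6% (46.4 to 68.3) of negative cells. The log2 ratio of SLC2A3 was 3.22 for the positive fraction against day 8 and 3.19 against the negative fraction, and 2.95 and 2.89 among cells with 4000 genes or more, with SLC2A3 detected in all 63 such cells of the positive fraction. At day 8 SLC2A3 already stood above day 2 (log2 ratio 1.24; 0.59 from FPKM as deposited). SLC2A14, a near-identical copy of SLC2A3, averaged 1.01, 0.094, 0.501, 7.62 and 0.199 in the 5 groups, so reads of the pair may have been split, with SLC2A3 the larger in each group.

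SLC2A1 encodes GLUT1, the transporter of most proliferating cells, and averaged 45.3 (BJ), 55.2 (day 2), 124 (day 8), 97.4 (positive) and 148 (negative). It was at least 2-fold higher at day 8 than at day 2 (log2 ratio 1.15; 0.94 on housekeeping scaling) and was not called at day 16. Its share of the summed level of both transporters was 79.9% (BJ), 87.5% (day 2), 86.2% (day 8), 33.3% (positive) and 87.8% (negative). SLC2A3 exceeded SLC2A1 in 59 of 93 (63.4%, 52.8 to 73.2) positive-fraction cells that held either, against 13 of 90 (14.4%, 7.92 to 23.4) at day 8 and 8 of 81 (9.88%, 4.36 to 18.5) in the negative fraction. Among positive cells with 4000 genes or more the count was 38 of 63 (60.3%).

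**Figure D3:**
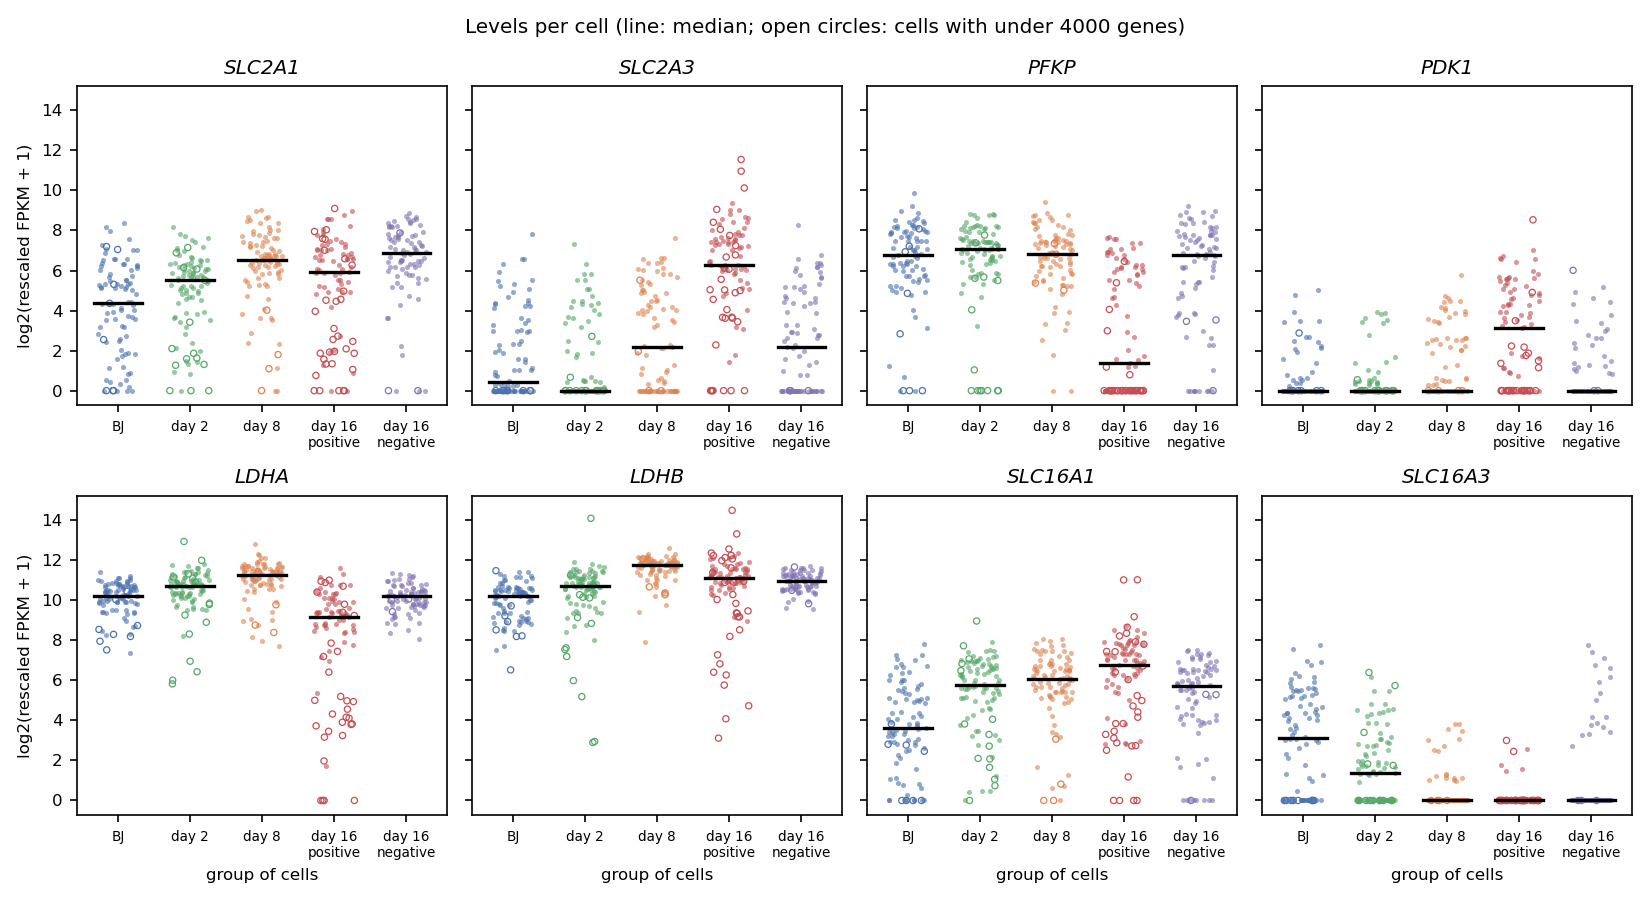
Levels of 8 genes in each kept cell of the 5 groups on the scale log2(rescaled FPKM + 1); filled points are cells with 4000 genes or more, open circles cells with fewer, and black lines medians. In the positive fraction SLC2A3, PDK1 and SLC16A1 sit high, LDHA sits low with a tail towards 0, and PFKP splits into cells with and without it.

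Hexokinase, which traps glucose as its phosphate, had HK1 as its more abundant transcript in every group. HK1, the broadly expressed isoform, averaged 14.5 (BJ), 11.7 (day 2), 13.4 (day 8), 34.7 (positive) and 22.7 (negative). HK2, the isoform linked to growth factors and hypoxia, averaged 3.69, 8.56, 6.16, 4.07 and 5.76 in the same order. HK2 was higher at day 2 than in BJ cells (log2 ratio 1.03; 0.83 on housekeeping scaling and 0.65 as a difference of mean log2 values). HK1 was higher in the positive fraction than at day 8 (log2 ratio 1.31; 1.31 among cells with 4000 genes or more). By mean log2 values the HK1 difference was 0.39, under the limit, and 62.1% of positive cells held HK1 against 73.9% at day 8. Among cells with 4000 genes or more these shares were 77.8% and 73.9%.

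The HK2 share of the pair was 20.2% (BJ), 42.3% (day 2), 31.5% (day 8), 10.5% (positive) and 20.2% (negative). HK2 exceeded HK1 in 14 of 76 (18.4%, 10.5 to 28.97) BJ cells with either, in 29 of 75 (38.7%, 27.6 to 50.6) at day 2, 29 of 83 (34.9%, 24.8 to 46.2) at day 8, 9 of 65 (13.8%, 6.53 to 24.7) in positive and 12 of 61 (19.7%, 10.6 to 31.8) in negative cells. Because these intervals leave out spread between cultures, their overlap or lack of it tests no difference between the groups. Both isoforms were low, and neither was detected in 16 of 92 BJ cells, 21 of 96 day-2 cells, 9 of 92 day-8 cells, 30 of 95 positive and 24 of 85 negative cells. Among positive cells with 4000 genes or more the count was 9 of 63.

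GPI, which isomerises glucose 6-phosphate to fructose 6-phosphate, averaged 52.3 (BJ), 50.5 (day 2), 74.5 (day 8), 76.7 (positive) and 108 (negative). It was called in no comparison. It was detected in 90.6% or more of the cells of every group.

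Phosphofructokinase catalyses the committed step, and its platelet-type subunit PFKP fell in the positive fraction. PFKP averaged 157 (BJ), 152 (day 2), 147 (day 8), 37.3 (positive) and 141 (negative). Its values ran from 0 to 677 with a median of 113 at day 8, from 0 to 202 with a median of 1.61 in positive and from 0 to 598 with a median of 109 in negative cells. PFKP was detected in 97.8% (92.4 to 99.7) of day-8, 53.7% (43.2 to 63.98) of positive and 88.2% (79.4 to 94.2) of negative cells. The 4 groups other than the positive fraction had means within 141 to 157. The log2 ratio of PFKP was -1.95 against day 8 and -1.89 against the negative fraction. Among cells with 4000 genes or more these were -1.46 and -1.42, with PFKP in 73.02% of the 63 positive cells and a median of 36.8 there.

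PFKL, the liver-type subunit, averaged 34.2 (BJ), 9.87 (day 2), 21.8 (day 8), 20.9 (positive) and 51.8 (negative). The BJ mean of PFKL took 32.7% of its sum from 1 cell and was 23.3 without it. The medians of PFKL were 7.66 (BJ), 3.41 (day 2), 16.9 (day 8), 6.53 (positive) and 32.9 (negative). PFKL was lower at day 2 than in BJ cells (log2 ratio -1.70; -1.27 without the highest cell and -0.79, under the limit, by mean log2 values). It was higher at day 8 than at day 2 (1.07), though 0.87 on housekeeping scaling and 0.94 among cells with 4000 genes or more. It was also higher in the negative fraction than at day 8 (1.21; 0.92 as deposited). The positive fraction stood below the negative one (log2 ratio -1.27), and among cells with 4000 genes or more the value was -0.75, under the 2-fold limit.

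PFKM, the muscle-type subunit, averaged 23.05 (BJ), 21.5 (day 2), 28.4 (day 8), 57.04 (positive) and 63.7 (negative). Of the positive-fraction mean, 1 cell gave 59.6%, and without it the mean was 23.3; the median of PFKM there was 0. In the 63 positive cells with 4000 genes or more the median was 14.5, against 17.7 in such cells of day 8, and 63.5% of them held PFKM. In the negative fraction PFKM was higher than at day 8 (log2 ratio 1.14; 0.96 among cells with 4000 genes or more, 0.84 as deposited and 0.74 by mean log2 values), with medians of 42.3 and 15.4. PFKP gave 73.2% (BJ), 82.9% (day 2), 74.5% (day 8), 32.4% (positive) and 55.01% (negative) of the summed level of the 3 subunits. Among cells with 4000 genes or more the positive-fraction share of PFKP was 45.7%, that of PFKM 28.2% and that of PFKL 26.2%. No subunit at all was detected in 21 of 95 positive cells, against 4, 5, 0 and 1 cells of the BJ, day-2, day-8 and negative groups. Among positive cells with 4000 genes or more the count was 3 of 63.

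The PFKFB genes encode bifunctional enzymes that make or remove the fructose bisphosphate that is the main activator of phosphofructokinase, and all 3 were sparse. PFKFB3, known for its strong kinase activity, averaged 3.11 (BJ), 2.11 (day 2), 1.38 (day 8), 2.23 (positive) and 7.75 (negative). It was detected in 58.8% (47.6 to 69.4) of negative cells against 19.6% (12.03 to 29.1) at day 8 and 15.8% (9.12 to 24.7) of positive cells. It was higher in the negative fraction than at day 8 (log2 ratio 1.88) and lower in the positive than in the negative fraction (-1.44; -0.87 from FPKM as deposited). PFKFB4 averaged 3.15, 1.98, 0.605, 3.40 and 5.55 in the order of the groups and was higher than at day 8 in both fractions, with log2 ratios of 1.45 and 2.03 (0.49 and 0.70 by mean log2 values). PFKFB2 averaged 0.612, 1.31, 0.227, 2.17 and 0.764 and was higher in the positive fraction than at day 8 (1.37; 1.02 without the highest cell and 0.45 by mean log2 values), and 23.2% (15.1 to 32.9) of positive cells held it.

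Aldolase, which cuts the sugar bisphosphate into triose phosphates, was mostly ALDOA in every group. ALDOA, the ubiquitous isoform, averaged 996 (BJ), 781 (day 2), 1143 (day 8), 968 (positive) and 1344 (negative). ALDOC, the brain isoform, averaged 23.4, 21.5, 23.2, 40.8 and 40.98 in the same order. ALDOA held between 95.95% and 98.01% of the pair. ALDOC exceeded ALDOA in 2 of 92 BJ cells and 1 of 94 positive cells and in none of the day-2, day-8 and negative cells, where a count of 0 allows shares of up to 3.16%, 3.26% and 3.53%. ALDOC was detected in 23.96% (15.8 to 33.7) of day-2 cells, the lowest share, and in 41.1% (31.1 to 51.6) of positive cells, the highest. A single BJ cell gave 48.2% of the BJ sum of ALDOC. No comparison called either gene.

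TPI1, which interconverts the triose phosphates, averaged 1990.4 (BJ), 1979 (day 2), 2664 (day 8), 2970.3 (positive) and 1960.3 (negative). GAPDH, the dehydrogenase of the next step, averaged 7990.1, 6139, 6179, 5174 and 4255 in the same order. GAPDH was found in every kept cell, the cell filter having asked for ACTB or GAPDH, with values from 1377 to 14809 with a median of 8429 in BJ cells, from 23.6 to 13401 with a median of 5757 in positive and from 860.4 to 7317 with a median of 4121 in negative cells. Neither was called in a comparison, and the sign of the small GAPDH difference between day 2 and BJ cells (-0.38) turned from FPKM as deposited (0.15). The GAPDH mean of the negative fraction was below that of day 8, with a log2 ratio of -0.54, -0.83 as deposited and -0.65 on housekeeping scaling. Detection of TPI1P3 and of TPI1P2, processed copies of TPI1, was 96.7% and 44.6% of day-8 cells against 15.3% and 1.18% of negative cells; their means were at most 5.99 in any group.

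PGK1, which makes the first ATP of the pathway, averaged 416 (BJ), 421 (day 2), 506 (day 8), 794 (positive) and 347 (negative). Its values ran from 0 to 7893 with a median of 574 in positive and from 4.52 to 849.8 with a median of 346 in negative cells, so the groups overlapped widely. PGK1 was higher in the positive fraction by a log2 ratio of 1.19. This value depended on cells of low complexity: the 32 positive cells with under 4000 genes averaged 1139.7 and the other 63 averaged 619, and among cells with 4000 genes or more the ratio was 0.78, under the 2-fold limit. As a difference of mean log2 values it was 0.18.

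PGAM1, phosphoglycerate mutase, averaged 108 (BJ), 201 (day 2), 141 (day 8), 185 (positive) and 187 (negative), with no call on the rescaled levels. Its near-identical copy PGAM4 averaged 3.28, 0.807, 5.64, 7.74 and 0.641 and was detected in 64.1%, 27.1%, 92.4%, 75.8% and 20% of cells. Its detection was lowest in the day-2 and negative tables. How reads were divided between the copies is not given in the sources used here. RPL21, a ribosomal gene with many copies in the genome that was named after its values were seen, averaged 4.44, 1225, 5.90, 2.49 and 992 in the order of the groups, so it too was split by table, with its high means in the day-2 and negative tables. The bearing of this split on PGAM1 was not tested. From FPKM as deposited the ratio of PGAM1 was 3.35 at day 2 against BJ and -2.88 at day 8 against day 2, both past the 2-fold limit.

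Enolase was ENO1 in nearly all of its transcript. ENO1, the ubiquitous isoform, averaged 1726 (BJ), 1493 (day 2), 2112 (day 8), 1269 (positive) and 1317 (negative). It was found in every kept cell. ENO1 held 96.8% of the summed level in the positive fraction and 98.5% to 99.7% elsewhere. ENO3, the muscle isoform, averaged 1.07 (BJ), 1.13 (day 2), 1.504 (day 8), 27.7 (positive) and 6.33 (negative). ENO3 was detected in 6.52% (2.43 to 13.7) of day-8, 40% (30.1 to 50.6) of positive and 10.6% (4.96 to 19.2) of negative cells, and in 55.6% of the positive cells with 4000 genes or more.

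The log2 ratio of ENO3 was 3.52 for the positive fraction against day 8 and 1.97 against the negative fraction, and the negative fraction stood 1.55 above day 8 (0.32 by mean log2 values). Of 6 muscle markers, 0 were in at least 50% of cells of any group; their summed level ran from 0 to 618 in day-8 cells, 0 to 133 in positive and 0 to 753 in negative cells. MYOG was listed at 0 in these 3 groups, and the part of muscle markers in the ENO3 levels was not tested. ENO2, the neuronal isoform, averaged 10.8, 7.81, 4.89, 14.3 and 13.1 in the order of the groups and was called higher than at day 8 in both fractions (1.38 and 1.26, the second 0.77 among cells with 4000 genes or more), where 25.3% and 21.2% of cells held it against 17.4% at day 8. By mean log2 values the ENO2 differences were 0.49 and 0.31, and the second ratio was 0.94 as deposited. ENO3 exceeded ENO2 in 32 of 49 (65.3%, 50.4 to 78.3) positive cells with either and in 4 of 42 (9.52%, 2.66 to 22.6) BJ cells.

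PKM, pyruvate kinase, whose transcript isoforms M1 and M2 share 1 value here, averaged 164 (BJ), 149 (day 2), 147 (day 8), 93.3 (positive) and 256 (negative). In single cells its values ran from 0 to 283 with a median of 89.2 in positive and from 72.8 to 651 with a median of 231 in negative cells. PKM was lower in the positive than in the negative fraction (log2 ratio -1.45; -1.10 among cells with 4000 genes or more). The upper quartile of the positive fraction, 128, lay below the lower quartile of the negative one, 183. Against day 8 neither fraction was called, with ratios of -0.65 and 0.80.

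**Figure D4:**
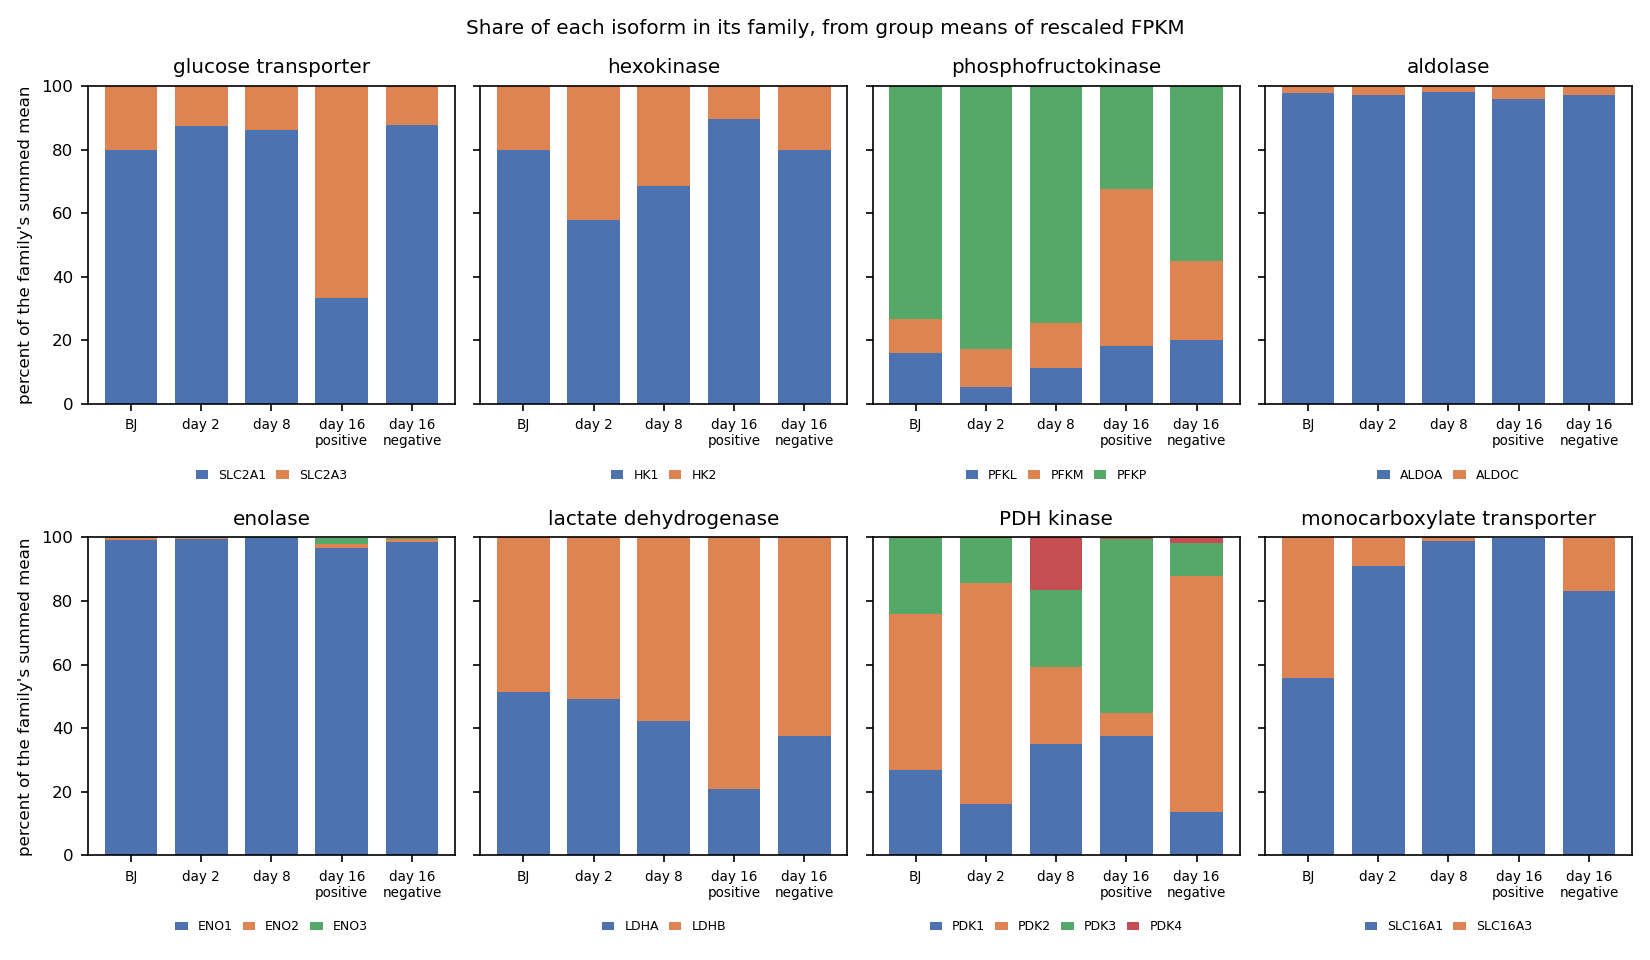
Share of each isoform in the summed mean level of its family (vertical axis, percent) in the 5 groups (horizontal axis), for 8 families of the pathway. SLC2A3, LDHB and SLC16A1 take their largest shares in the positive fraction; the PFKM and PDK3 shares of that group come mostly from 1 cell each.

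The lactate dehydrogenase transcript was split about evenly between LDHA and LDHB in BJ cells and was mostly LDHB in the positive fraction. LDHA, the subunit that favours the step from pyruvate to lactate, averaged 1226 (BJ), 1748 (day 2), 2425 (day 8), 666 (positive) and 1217 (negative). LDHB, the heart-type subunit, averaged 1167 (BJ), 1802 (day 2), 3311 (day 8), 2549.9 (positive) and 2031 (negative). LDHA was lower in the positive fraction than at day 8 by a log2 ratio of -1.86 (-1.61 among cells with 4000 genes or more and -1.89 on housekeeping scaling). The upper quartile of the positive fraction, 974, lay below the lower quartile of day 8, 1762. Single-cell values of LDHA ran from 208 to 7117 with a median of 2460.2 at day 8, from 0 to 3082 with a median of 576 in positive and from 266 to 2618 with a median of 1174 in negative cells.

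Against day 8 the negative fraction had LDHA at a ratio of -0.99, just under the 2-fold limit, which it passed as deposited (-1.25), on housekeeping scaling (-1.10) and among cells with 4000 genes or more (-1.02). The 2 fractions differed by -0.87, which was not called (-0.59 among cells with 4000 genes or more and -2.14 by mean log2 values). LDHB was called in no comparison; its ratios were 0.63 at day 2 against BJ, 0.88 at day 8 against day 2, -0.38 and -0.70 in the fractions against day 8. The median of LDHB was 1182, 1699, 3522, 2247 and 1991 in the order of the groups. A single day-2 cell and 1 positive cell reached 17475 and 23016, which were 10.1% and 9.50% of their groups' sums.

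LDHB held 48.8% (BJ), 50.8% (day 2), 57.7% (day 8), 79.3% (positive) and 62.5% (negative) of the summed level of the pair. Within single cells, LDHB exceeded LDHA in 39 of 92 (42.4%, 32.1 to 53.1) BJ cells, 48 of 96 (50%, 39.6 to 60.4) at day 2, 76 of 92 (82.6%, 73.3 to 89.7) at day 8, 88 of 95 (92.6%, 85.4 to 96.99) in positive and 73 of 85 (85.9%, 76.6 to 92.5) in negative cells. A ratio within a cell does not depend on the rescaling. These intervals cover counting error only, and the groups were not tested against each other. Among cells with 4000 genes or more the count was 72 of 88 (81.8%, 72.2 to 89.2) at day 8. There it was 62 of 63 (98.4%, 91.5 to 99.96) in positive and 71 of 82 (86.6%, 77.3 to 93.1) in negative cells. As a description across cells, Spearman's rho of LDHA and LDHB was 0.39 in BJ (92 cells), 0.37 at day 2 (96) and 0.16 at day 8 (92). In the positive fraction rho was 0.16 (95), or 0.09 among its 63 cells with 4000 genes or more, and in the negative fraction -0.05 (85). Both values of a point share the cell's total and depth.

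**Figure D5:**
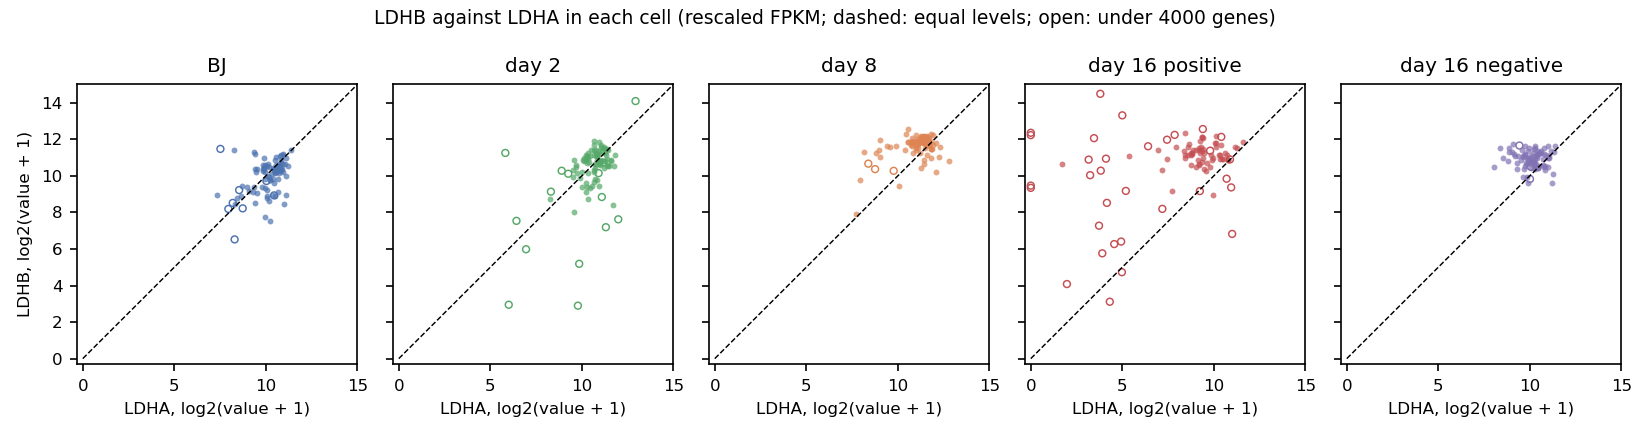
LDHB against LDHA in each kept cell of the 5 groups, both as log2(rescaled FPKM + 1); the dashed line marks equal levels and open circles are cells with under 4000 genes. BJ and day-2 cells lie on both sides of the line, and most cells of day 8 and of both fractions lie above it, those of the positive fraction with a tail of low LDHA.

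The kinases that switch off pyruvate dehydrogenase differed between the fractions by isoform. PDK1, a known hypoxia-responsive kinase, averaged 1.63 (BJ), 1.04 (day 2), 4.06 (day 8), 22.3 (positive) and 3.28 (negative). It was detected in 18.5% (11.1 to 27.9) of BJ cells, 12.5% (6.63 to 20.8) at day 2, 35.9% (26.1 to 46.5) at day 8, 63.2% (52.6 to 72.8) of positive and 28.2% (19 to 39.04) of negative cells. Among positive cells with 4000 genes or more the share was 79.4%. Its log2 ratios were 1.31 at day 8 against day 2 (0.78 by mean log2 values), 2.20 in the positive fraction against day 8 and 2.44 against the negative fraction. With all 480 cells, before the filter on cells, the last value was 0.45, under the 2-fold limit; among cells with 4000 genes or more it was 2.94. The negative fraction against day 8 was not called (-0.24), but its ratio was 1.78 with all 480 cells.

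PDK2, the widely expressed isoform, was highest in the negative fraction. It averaged 2.97 (BJ), 4.47 (day 2), 2.78 (day 8), 4.11 (positive) and 18.03 (negative). It was detected in 49.4% (38.4 to 60.5) of negative against 16.8% (9.94 to 25.9) of positive and 21.7% (13.8 to 31.6) of day-8 cells. PDK2 was higher in the negative fraction than at day 8 (log2 ratio 2.33) and lower in the positive than in the negative fraction (-1.90). PDK1 exceeded PDK2 in 55 of 65 (84.6%, 73.5 to 92.4) positive cells with either, 30 of 46 (65.2%, 49.8 to 78.6) at day 8, 16 of 41 (39.02%, 24.2 to 55.5) in BJ, 9 of 42 (21.4%, 10.3 to 36.8) at day 2 and 15 of 54 (27.8%, 16.5 to 41.6) in the negative fraction. Spread between cultures is not part of these intervals, and the fractions were not tested against each other.

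PDK3 averaged 1.44 (BJ), 0.921 (day 2), 2.84 (day 8), 32.5 (positive) and 2.51 (negative), but 1 cell gave 74.9% of the positive sum and the mean without it was 8.23. Its log2 ratio against day 8 was 3.13 with that cell and 1.54 without the highest cell of each group, and against the negative fraction 3.25 and 2.01. By mean log2 values these were 0.56 and 0.57. PDK4, which responds to fasting and fatty acids, was found in 11 of 92 day-8 cells, 11.96% (6.12 to 20.4), in 3 positive and 2 negative cells and in none at day 2 or in BJ, where a count of 0 allows up to 3.13% and 3.26%. Its means were 0.0033, 0.0063, 1.90, 0.262 and 0.421, so the calls for PDK4 (log2 ratios 1.53 at day 8 against day 2, -1.20 and -1.03 after it) rest on few cells. By mean log2 values they were 0.43, -0.34 and -0.34, and the last ratio was -0.96 among cells with 4000 genes or more.

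Both listed subunits of pyruvate dehydrogenase were detected in most cells of every group. PDHB, the beta subunit of pyruvate dehydrogenase, averaged 269 (BJ), 198 (day 2), 428 (day 8), 537 (positive) and 348 (negative). It was higher at day 8 than at day 2 (log2 ratio 1.10; 0.91 among cells with 4000 genes or more and 0.89 on housekeeping scaling, both under the 2-fold limit). A single BJ cell gave 21.7% of the BJ sum. PDHA1, the X-linked alpha subunit that the kinases phosphorylate, averaged 37.4, 51.1, 65.7, 75.1 and 66.02 with no call. PDHA1 was detected in 98.9% of day-8 and 72.6% of positive cells. Among cells with 4000 genes or more these shares were 98.9% and 88.9%.

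Both lactate carriers were present in most BJ cells, and SLC16A1 alone in most cells of the positive fraction. SLC16A1 (MCT1), which carries lactate in either direction, averaged 29.9 (BJ), 70.6 (day 2), 81.4 (day 8), 168 (positive) and 59.7 (negative). Its values ran from 0 to 228 with a median of 11.4 in BJ cells, from 0 to 269 with a median of 67.1 at day 8, from 0 to 2078 with a median of 107 in positive and from 0 to 182 with a median of 52.3 in negative cells. The gene was higher at day 2 than in BJ cells (log2 ratio 1.21; 0.96 on housekeeping scaling). It was higher in the positive fraction than at day 8 (1.04; 0.74 among cells with 4000 genes or more and 0.89 without the highest cell, both under the 2-fold limit, as was 0.47 by mean log2 values) and than in the negative fraction (1.48; 1.21 and 1.33).

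SLC16A3 (MCT4), the exporter of strongly glycolytic cells, averaged 23.8 (BJ), 6.98 (day 2), 0.944 (day 8), 0.237 (positive) and 12.1 (negative). SLC16A3 was detected in 64.1% (53.5 to 73.9) of BJ cells, 55.2% (44.7 to 65.4) at day 2, 18.5% (11.1 to 27.9) at day 8, 6.32% (2.35 to 13.2) of positive and 21.2% (13.1 to 31.4) of negative cells. SLC16A3 was lower at day 2 than in BJ (log2 ratio -1.63), lower again at day 8 (-2.04), higher in the negative fraction than at day 8 (2.75) and lower in the positive than in the negative fraction (-3.41). In the negative fraction the upper quartile was 0, so a minority of cells, up to 213, carried the mean. As differences of mean log2 values the last 2 ratios were 0.64 and -0.93.

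Both carriers were detected together in 53 of 92 BJ cells, 49 of 96 at day 2, 17 of 92 at day 8, 6 of 95 positive and 17 of 85 negative cells. SLC16A1 alone was detected in 22, 41, 69, 85 and 59 cells, and SLC16A3 alone in 6, 4, 0, 0 and 1. SLC16A1 gave 55.7% (BJ), 91% (day 2), 98.9% (day 8), 99.9% (positive) and 83.1% (negative) of the summed level of both.

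Neighbouring pathways were counted in the same way, as genes higher and lower of those measured, beside the all-gene shares given above. For 18 hypoxia targets outside glycolysis the counts were 1 and 1 of 17 at day 2 against BJ, 3 and 7 of 17 at day 8 against day 2, 6 and 4 of 17 in positive and 10 and 2 of 16 in negative cells against day 8, and 5 and 7 of 17 in the positive against the negative fraction. In the negative fraction against day 8 that list reached a median log2 ratio of 1.32, with P4HA2, a collagen prolyl hydroxylase, at 47.5 and 467 and DDIT4, a stress-induced mTOR inhibitor, at 29.3 and 260.2, and ANGPTL4, a lipase inhibitor, lower at 62.95 and 4.86. The median over all genes was 0.49 there. Of the 31 genes, 30 were measured in that comparison, with 8 higher and 1 lower (all genes 28.4% and 10.6%).

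The 14 regulators of glycolytic genes had calls, higher and lower, of 3 and 1 of 9 at day 2 against BJ, 0 and 3 of 9 at day 8 against day 2, 7 and 1 of 12 in positive and 3 and 0 of 8 in negative cells against day 8, and 5 and 2 of 13 in the positive against the negative fraction. MYC, a factor of the viral cocktail, averaged 44.5 (BJ), 988 (day 2), 375 (day 8), 75.1 (positive) and 334 (negative); whether reads of the viral copy count towards it is not given in the sources used here. MYC was thus highest at day 2 and, after BJ cells, lowest in the positive fraction. HIF1A, the hypoxia-inducible factor, averaged 44.4, 37.7, 54.8, 162 and 128. TXNIP, which restrains glucose uptake, averaged 30.8, 18.2, 24.2, 15.3 and 70.8. LIN28A, which blocks let-7 maturation, averaged 138 and MYCN 11.3 in the positive fraction, and both were listed at 0 in the negative fraction.

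Among the other genes of glycolysis and gluconeogenesis, counts were 1 and 3 of 16 at day 2 against BJ, 3 and 3 of 15 at day 8 against day 2, 6 and 3 of 17 in positive and 5 and 3 of 15 in negative cells against day 8, and 7 and 3 of 20 in the positive against the negative fraction. FBP1, the phosphatase that opposes phosphofructokinase, was listed at 0 in BJ cells and averaged 0.036 at day 2, 63.6 at day 8, 9.60 in positive and 4.39 in negative cells, with detection in 47.8% (37.3 to 58.5) of day-8 cells. PCK2, the mitochondrial PEP carboxykinase, averaged 38.6, 30.2, 13.03, 21.5 and 123. The SLC2A6 mean in BJ cells, 145, took 94.8% of its sum from 1 cell. FBP2 was listed at 0 at day 8 and averaged 15.2 in the positive fraction, and it was detected in 14.1%, 28.1%, 0%, 81.1% and 1.18% of cells (0 at day 8 allows up to 3.26%). PCK1, the cytosolic PEP carboxykinase and named after its values were seen, was likewise detected in 56.5%, 58.3%, 0%, 62.1% and 0% of cells. Both genes were lowest in the day-8 and negative tables, as were the 15 genes that split the tables, and the part of the tables in these values was not tested.

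In each comparison most genes of the pentose phosphate pathway were not called, and neither were most of all measured genes. At day 8 against day 2, 30% of its measured genes were higher and 10% lower, against 13% and 12.5% of all genes. The pathway, which branches off at glucose 6-phosphate, had 1 and 2 of 9 at day 2 against BJ, 3 and 1 of 10 at day 8 against day 2, 1 and 1 of 9 in positive and 1 and 1 of 9 in negative cells against day 8, and 2 and 2 of 9 in the positive against the negative fraction. TKT, a transketolase, averaged 185 (BJ), 117 (day 2), 417 (day 8), 339 (positive) and 291 (negative). Glycogen genes had 2 and 0 of 9 at day 2 against BJ, 4 and 0 of 9 at day 8 against day 2, 2 and 4 of 9 in positive and 0 and 2 of 9 in negative cells against day 8, and 1 and 2 of 9 in the positive against the negative fraction. PYGL, glycogen phosphorylase of the liver type, averaged 10.9 (BJ), 43.8 (day 2), 107 (day 8), 32.7 (positive) and 49 (negative). UGP2, which makes UDP-glucose, averaged 153, 104, 94.9, 432 and 123, its highest level in the positive fraction. GBE1, the branching enzyme, averaged 33.96, 33.97, 56.9, 14.9 and 80.7.

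Downstream of pyruvate, genes of pyruvate and lactate handling had 0 and 0 of 11 at day 2 against BJ, 1 and 0 of 11 at day 8 against day 2, 1 and 0 of 11 in positive and 1 and 0 of 11 in negative cells against day 8, and 1 and 3 of 11 in the positive against the negative fraction. PC, pyruvate carboxylase, averaged 3.27, 2.73, 2.67, 3.08 and 19.7 in the order of the groups. MPC1, of the mitochondrial pyruvate carrier, averaged 67.2, 55.1, 44.4, 36.3 and 84.1. PC was highest in negative cells. Citric acid cycle genes had 1 and 0 of 17 at day 2 against BJ (all genes 12.2% and 12.1%) and 2 and 0 of 17 at day 8 against day 2 (13% and 12.5%). Against day 8 they had 0 and 2 of 17 in positive (30.3% and 11.6%) and 1 and 1 of 17 in negative cells (28.4% and 10.6%). In the positive against the negative fraction the counts were 2 and 0 of 17 (24.8% and 21.4%). SUCLA2, a subunit of succinyl-CoA synthetase, averaged 56.1 (BJ), 107 (day 2), 282 (day 8), 283 (positive) and 117 (negative). A single positive cell gave 88.7% of the OGDH sum of that group, and its mean of 29.97 was not called, since its mean log2 value lay below that of day 8 and of the negative fraction.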

How the data were processed

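Polyadenylated RNA of single BJ-derived cells was captured on Fluidigm C1 chips and sequenced from tagmented (Nextera XT) cDNA, per the labels' protocols. The authors deposited 1 table of FPKM values per group, 27021 genes by 96 cells; STAR, Cuffnorm and hg19 are listed in the submitters' processing notes, and their roles and versions are not given in the sources used here. Depth is unknown, because no counts were used and whole-read steps could not be found in the low FPKM values.

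Each cell was rescaled to a total of 1000000. Cells with at least 2000 detected genes and ACTB or GAPDH were kept (460 of 480). Genes were compared by the log2 ratio of group means with a pseudocount of 1, in 5 comparisons, and called from a 2-fold difference. No test, SD or standard error over cells is given, since cells of 1 group are not replicate cultures and the labels name no others. Of the 31 genes all are accounted for, and those with a mean of 10 or more and a call in at least 1 comparison, with all isoforms of the enzyme families, are described with values; of each other list at most the 3 genes with the largest differences per comparison are named. The 31 genes and the other lists were chosen with earlier results of these data known. The script was tested on simulated data. Other scalings, pseudocounts, cell filters and detection limits were tried. Promoter windows came from RefSeq on GRCh38.p14 and were used for sequence only, not set against the hg19 values by position. Analyses used Python 3.11.15, numpy 2.4.6, pandas 2.3.3, scipy 1.17.1 and matplotlib 3.10.9.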

Additional observations from a re-analysis of the deposited data

How the results depend on the processing

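Each group is 1 sample as far as the labels say, so culture, day, chip and table cannot be told apart from the group, and intervals cover counting error only. No paired analysis was possible because the results come from no test and the shared numbers in the labels only name cells. Over 13 other settings, the 44 calls gave 509 values that stayed past the 2-fold limit, 63 that did not and 0 that changed sign. In some settings, named above, a sign could not change by construction. Of the 63 values, a pseudocount of 10 took 22 and the difference of mean log2 values 20. Leaving out the highest cell of each gene, and summing PGAM1 and SLC2A3 with their copies, were chosen after seeing the data. The cause of a moved count was not tested, beside what each setting does by construction.

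Counts of genes higher at day 2 against BJ (2 as reported) were 7 from FPKM as deposited, 0 on housekeeping scaling, 1 with a pseudocount of 10 and 1 as differences of mean log2 values; of genes lower (2), 1 under each of the last 2. For day 8 against day 2, higher counts (6) were 3 on housekeeping scaling and 2 with a pseudocount of 10; lower counts (1) were 2 as deposited, 3 on housekeeping scaling, 2 without small and mitochondrial RNA in the total, 3 with a pseudocount of 0.1, 0 with 10 and 2 in cells with 4000 genes or more. For the positive fraction against day 8, higher counts (9) were 4 with a pseudocount of 10 and 3 as differences of mean log2 values, which gave 7 lower (3). For the negative fraction against day 8, higher counts (8) were 5 as deposited, 2 with a pseudocount of 10 and 3 by mean log2 values; lower counts (1) were 2 as deposited, on housekeeping scaling, without the 31 genes in the total and without the 5% of cells with most genes, and 0 with a pseudocount of 10 and by mean log2 values. For the positive against the negative fraction, mean log2 values gave 11 lower (6). In cells with 4000 genes or more, ALDOC exceeded ALDOA in 0% of positive cells (1.06%), ENO2 exceeded ENO1 in 0% of positive (1.05%) and 0% of negative cells (1.18%), and LDHB exceeded LDHA in 98.4% of positive cells (92.6%). Scaling moved the median log2 ratio of all genes at day 8 against day 2 from 0.06 to -0.12 as deposited and -0.14 on housekeeping scaling, where the split of calls among the 31 genes was 5 higher and 2 lower, and 3 and 3.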
